A study of Mus musculus with 8 samples.

Results

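Tag clusters of CAGE-seq whose dominant TSS lay in a 3' untranslated region (3' UTR) were taken from E14 cells and from 2 clones lacking Pwwp2a and Pwwp2b. A cluster was a member if its dominant TSS, the single base with most 5' ends, was over 500 bp from every same-strand transcript start, outside same-strand coding sequence and downstream of the stop codon in an exon of a same-strand coding transcript (GENCODE release M21, on GRCm38, the assembly of mm10). Members numbered 1013 of the 32857 clusters of E14, 1020 of the 33005 of DKO clone A1 and 1031 of the 32870 of DKO clone C7. E14 is a wild-type line of mouse embryonic stem cells, and A1 and C7 are embryonic stem cell lines labelled as double PWWP2A/B knockouts, each grown from 1 clone. All lines were cultured with serum and LIF, and nuclear RNA was used. The 8 libraries were 3 of E14, 2 of A1 and 3 of C7, and the deposited positions merge the libraries of each line. They carry no signal and no separate replicates, so the depth behind a cluster is unknown here, no difference between lines could be set against replicate error, and the intervals given cover counting error only.

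CAGE-seq captures RNA by its 7-methylguanosine cap and reads the first bases of the cDNA, so that a 5' end is taken as a capped RNA end. Whether each member was a capped end was not tested. The 3' UTR is the stretch of an mRNA between the stop codon and the poly(A) tail and holds binding sites for microRNAs and RNA-binding proteins. A capped end inside it can come from initiation at that base or from the cutting and recapping of a longer RNA, and positions alone do not tell these apart. PWWP2A and PWWP2B are chromatin proteins that bind histone H3 trimethylated at lysine 36, a mark of transcribed gene bodies, and a histone deacetylase core shared with the NuRD complex. All 38 listed pluripotency genes had a cluster at an annotated start in each line. Pwwp2a kept 1 start cluster in every line and Pwwp2b had none in any, so presence of a cluster does not check the knockout.

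The bases around 18 of the starts are shown because most 3' UTR starts shared one sequence feature and because 10 clusters separated both clones from E14. Each run is the transcript strand in mm10, 15 bases before the dominant TSS and 15 from it onwards, so the TSS is the first lower-case base after the capitals. Capitals mark the 4 bases before the TSS. The first 10 belong to the clusters of both clones that E14 lacked:
Enah (chr1:181903683-181903712, minus strand): acgtagagtacTGGGtctagatggtccaaa
Pkp4 (chr2:59354553-59354582, plus strand): ggatgagtgaaGAGGttttggtttgtttgt
Pakap (chr4:57892988-57893017, plus strand): cttctctgctgAAGGaatttctgcagagaa
Ppp1cb (chr5:32492202-32492231, plus strand): tttcataatcaAAGGtcatgatgtgtatag
Cd9 (chr6:125460476-125460505, minus strand): tgagggatccgGGGGttcaatttattttga
Gatad2a (chr8:69909404-69909433, minus strand): ttgggttttatTGGGtttttttttgttttg
Kank2 (chr9:21767353-21767382, minus strand): gggtgggtgggTGGAtggatgcataaatga
Pa2g4 (chr10:128558466-128558495, minus strand): ctcactcctggGGGGgtttgtttttctttt
Irf2bpl (chr12:86880948-86880977, minus strand): tgggaggggatGGGTggtttgtttggtttt
Myo10 (chr15:25812768-25812797, plus strand): ttaacgtttttGGGGtttttttgttttttt
The next 5 are the widest E14 clusters of the genes with most 3' UTR clusters:
Nucks1 (chr1:131932009-131932038, plus strand): ccttgggtgtgGAGGgaatggtgttcctgg
Tet1 (chr10:62812185-62812214, minus strand): gtgctttccccCGGGtttgtttactattca
Msi2 (chr11:88342949-88342978, minus strand): ggtcctcagttGGGGaagacacttagaatg
Slc2a3 (chr6:122729446-122729475, minus strand): tattttatcttCAGGttgaattgcataaat
Tdgf1 (chr9:110940007-110940036, minus strand): gagcagcagatGGGGaagtgactaagactg
The last 3 are from Hnrnpk and Ptges3, chosen as published example genes of this series:
Hnrnpk (chr13:58391924-58391953, minus strand): tctatttttggTGGTcttttttttttttaa
Ptges3, first (chr10:128076166-128076195, plus strand): atagctctaaaGGCAgatatgctgtacttg
Ptges3, second (chr10:128076207-128076236, plus strand): ccagttgtcaaCCTTtttttttctttttct

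The 3' UTR starts lay toward the stop codon. The median dominant TSS of E14 lay 0.333 of the way along the spliced 3' UTR (95% interval of the median 0.303 to 0.365), with quartiles at 0.157 and 0.604. It lay at 0.333 in A1 (0.309 to 0.367) and 0.335 in C7 (0.305 to 0.365). Of 1037 3' UTR clusters joined over the lines, 1004 were found in all 3. The medians were thus taken over nearly the same positions, and their likeness is not independent evidence. In bases, the E14 median was 619 from the stop codon (quartiles 231 and 1422) and 1161 from the annotated 3' end (quartiles 600 and 2294). When each 3' UTR was cut into 10 equal parts, the part next to the stop codon held 183 of the 1013 E14 clusters (18.1%, 95% Wilson interval 15.8% to 20.6%) and the part next to the 3' end held 23 (2.27%, 1.52% to 3.38%). Before the midpoint lay 671 (66.2%).

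Because short 3' UTRs have no bases far from the stop codon, the clusters were also counted per megabase that the rule allows, over 1 reference 3' UTR of each of 10994 coding genes with a start cluster in E14. These 3' UTRs held 860 of the E14 clusters in 15.5 Mb, or 55.3 clusters per Mb. The density was 113 per Mb within 100 bases of the stop codon (exact Poisson 95% interval 93.6 to 136), 54.9 beyond 500 and up to 1000 bases (47.0 to 63.8) and 33.5 beyond 2000 and up to 4000 bases (27.2 to 40.8). Counted from the other side, it was 12.5 per Mb in the last 100 bases (6.67 to 21.4), 22.5 beyond 100 and up to 250 bases before the end (15.4 to 31.8) and 64.6 beyond 500 and up to 1000 bases before it (56.0 to 74.2). Among these distance classes, starts were densest next to the stop codon and sparsest next to the annotated 3' end, and the intervals of those 2 classes did not overlap. Per the methods, reads were aligned over their whole length, and a read that starts near the 3' end can reach the poly(A) tail. Whether this lowers the density found there was not tested.

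**Figure D1:**
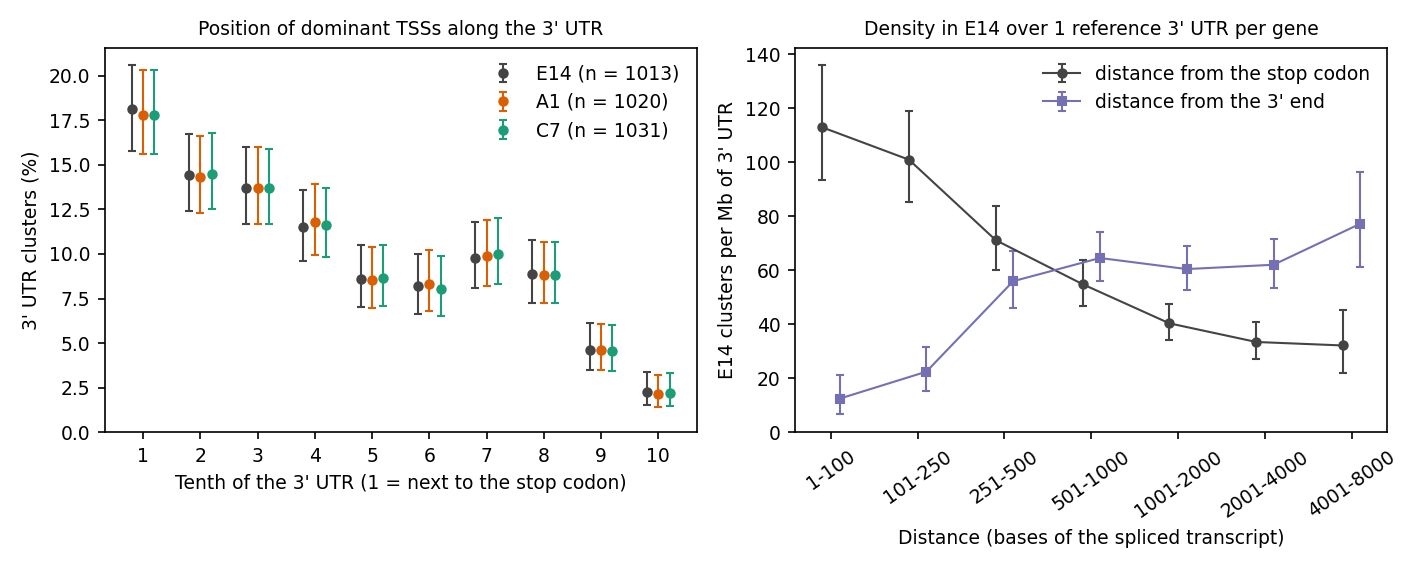
Left, share of 3' UTR clusters (%) in each of 10 equal parts of the 3' UTR for the 3 lines, with 95% Wilson intervals. Right, E14 clusters per Mb of 3' UTR against distance in bases from the stop codon (circles) or from the annotated 3' end (squares), with exact Poisson 95% intervals. The lines share nearly all of these clusters, so their overlapping intervals are not independent. The density goes from 113 per Mb within 100 bases of the stop codon to 12.5 per Mb within 100 bases of the 3' end.

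Nearly all of these starts lay in the last exon, 1000 of 1013 in E14, 1007 in A1 and 1018 in C7. In E14, 1 lay within 5 bases of the upstream edge of its exon. Only 21 E14 clusters (2.07%) lay within 100 bases of the annotated 3' end. In 323 (31.9%) the dominant TSS also lay in an intron or noncoding exon of another same-strand transcript, and 82 (8.09%) lay over a gene of the other strand. A cluster on the other strand within 500 bp was found for 61 E14 members (6.02%, 4.72% to 7.66%), close to the 8.34% of intron clusters (7.41% to 9.38%), whose interval overlapped, and against 651 of 2784 coding sequence clusters (23.4%) and 24.7% of clusters at annotated starts (24.1% to 25.3%). The 3 members nearest to a transcript start were at Nxf1, Ptms and Slc25a36, at 506, 515 and 528 bp. The excluded E14 clusters nearest to the limit were at Srsf1, Gm17067 and Tra2b, at 498, 455 and 445 bp, and 70 E14 clusters in all would have been members but for a transcript start within 500 bp.

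Members came from 583 genes in E14, 587 in A1 and 588 in C7. Of the E14 genes, 568 also had a cluster at an annotated start, and these were 5.13% of the 11065 coding genes with one (4.74% to 5.56%). A single 3' UTR cluster was found in 385 of the 583 E14 genes, 198 had at least 2 and 23 at least 5. Where a 3' UTR held several, neighbouring dominant TSSs of E14 were a median of 135 bases apart (408 pairs, quartiles 61 and 434). Genes with 3' UTR clusters also had coding sequence clusters more often, in 197 of 583 (33.8%) against 761 of the 10497 other coding genes with a start cluster (7.25%). RNA level was not measured by these positions, and its part in this was not tested.

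Long 3' UTRs more often held a start. The median 3' UTR of E14 member genes was 1782 bases (1641 to 2011), and that of the other coding genes with a start cluster was 906 bases (880 to 931). Among genes with a 3' UTR of at most 500 bases, 32 of 3482 had a cluster in it (0.919%), against 145 of 2571 (5.64%) beyond 1000 and up to 2000 bases and 86 of 633 (13.6%) beyond 4000 and up to 8000 bases. Per base there was no such rise with length. The density was 47.5 clusters per Mb in the shortest class (33.6 to 65.2), 68.4 beyond 1000 and up to 2000 bases (60.2 to 77.5) and 56.9 beyond 4000 and up to 8000 bases (48.9 to 65.7).

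The 5 genes with most 3' UTR clusters in E14 were Nucks1 with 17, Tet1 with 15, Msi2 with 13, and Slc2a3 and Tdgf1 with 9 each, and A1 and C7 had the same numbers. Nucks1, a chromatin-associated phosphoprotein, lies on the plus strand of chromosome 1 from 131910534 to 131936321, and its starts ran from 358 to 4669 bases after the stop codon of a 3' UTR of 5115 bases. Between 818 and 2510 bases none was found. Its cluster from 131931954 to 131932108 had an interquantile width of 82 bp, and 8 of its 17 clusters were at most 2 bp wide.

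Tet1, the dioxygenase that oxidizes 5-methylcytosine, lies on the minus strand of chromosome 10 from 62804570 to 62908996. Of its 15 clusters, 14 lay in a 3' UTR of 7955 bases, from 333 to 6589 bases after the stop codon, and 11 of the 15 were at most 2 bp wide. Msi2, the RNA-binding protein Musashi 2, lies on the minus strand of chromosome 11 from 88339382 to 88718513. The rule for the reference transcript assigned 11 of its clusters to a 3' UTR of 5310 bases, between 1275 and 4239 bases. The other 2, at 165 and 412 bases, were assigned to a transcript with a 3' UTR of 803 bases. Both 3' UTRs begin at the same base, so these 2 also lay within the longer one. At Msi2, 11 of 13 starts had GGG within the 4 bases before them, the highest share of the 5 genes.

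Slc2a3, the glucose transporter GLUT3, lies on the minus strand of chromosome 6 from 122727809 to 122801640, with 9 starts between 193 and 1095 bases of a 3' UTR of 2122 bases. Tdgf1, the Nodal co-receptor Cripto, lies on the minus strand of chromosome 9 from 110939603 to 110946158, with 9 starts between 64 and 683 bases of 1101. The starts of Slc2a3 ended at 51.6% of the 3' UTR and those of Tdgf1 at 62.0%. Only 2 of the 9 clusters of Slc2a3 and 1 of the 9 of Tdgf1 were at most 2 bp wide, and GGG preceded 5 and 2 of them.

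**Figure D2:**
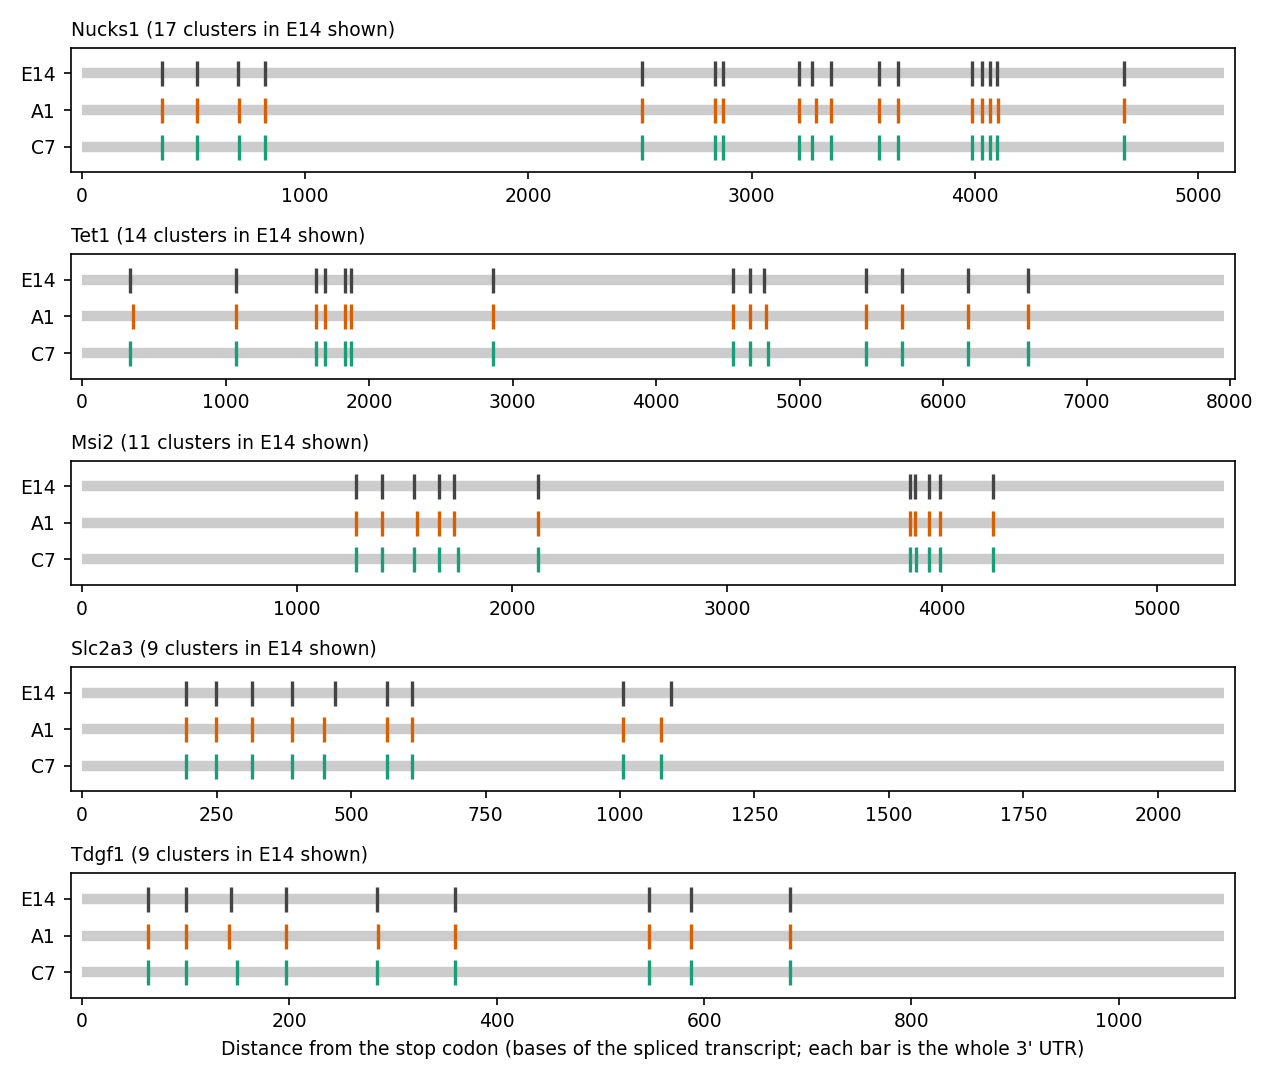
Dominant TSSs (ticks) in the 3' UTR of the 5 genes with most clusters, by distance from the stop codon in bases, in E14, A1 and C7. Each grey bar is the whole 3' UTR of the transcript to which most of the clusters were assigned, with 17, 14, 11, 9 and 9 E14 clusters. Clusters assigned to another transcript are not drawn, also where they lie within the bar, as at Msi2. Most ticks stand at the same base in the 3 lines.

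The members farthest from a stop codon in E14 were 3 clusters of D10Wsu102e, at 40170, 32196 and 25155 bases in an annotated 3' UTR of 122583 bases. Then came Ago2, the Argonaute protein that carries microRNAs, at 9952 of 11064 bases, and Pou2f1, the transcription factor OCT1, at 8467 of 10584 bases. Hnrnpk, an abundant RNA-binding protein, had 1 cluster from 58391937 to 58391939 on chromosome 13, at 505 of 1301 bases, with its dominant TSS at 58391938 in every line. Its interquantile width was 2 bp in E14 and 3 bp in A1 and C7. Ptges3, the cochaperone p23, had 2 clusters, from 128076164 to 128076181 and from 128076220 to 128076239 on chromosome 10, at 95 and 136 of 1186 bases and with the same dominant TSSs in each line. Nap1l1, a histone chaperone, had none in any line.

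The lists of gene groups differed in how often a 3' UTR start was found. They were chosen with results of these data known, so their counts are a description. Of 63 genes for hnRNPs and other RNA-binding proteins with a start cluster, 25 had a 3' UTR cluster in E14 (39.7%), among them Msi2 with 13, the splicing regulator Celf1 with 5 and the stress granule protein G3bp2 with 4. Pluripotency genes had one in 15 of 38 (39.5%), led by Tdgf1 with 9, the transcription factor Klf5 with 7 and Sox2 with 4. Genes of the secretory pathway and membrane had one in 20 of 52 (38.5%), led by Slc2a3 with 9, the glucose transporter Slc2a1 with 6 and the laminin chain Lamc1 with 5. Each of these shares stood above the 5.13% of all coding genes with a start cluster. The median 3' UTR was 1429 bases in the RNA-binding list, 948 in the pluripotency list and 906 in the secretory and membrane list. In the coding genes with a start cluster but no 3' UTR cluster it was 906 bases. The part of 3' UTR length in these shares was not tested.

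Chromatin regulator genes had a 3' UTR cluster in 18 of 70 (25.7%), led by Tet1 with 15, and by Jarid2 and Set with 4 each. Cytoskeleton genes had one in 9 of 44 (20.5%), among them the actin crosslinker Actn4 with 7, the tubulin Tubb5 with 6 and cofilin Cfl1 with 5. Translation factors had one in 6 of 41 (14.6%), led by the helicase Eif4a2 with 5, and chaperones in 3 of 33 (9.09%), Canx with 4, Ptges3 with 2 and Calr with 1. Ribosomal protein genes, whose 3' UTRs had a median of 89 bases, had one in 2 of 79 (2.53%), Rpl41 and Rps20 with 1 each. None of 51 cell cycle and replication genes had one (upper Wilson limit 7.00%). Their 3' UTRs had a median of 844 bases. The intervals of the chaperone (3.14% to 23.6%), ribosomal protein (0.697% to 8.77%) and cell cycle lists all held the 5.13% of all coding genes. In each list the count of genes in A1 and C7 was the same as in E14, but for 19 of 70 chromatin regulators in A1.

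The bases before the start set the 3' UTR clusters apart from annotated starts. In E14, GGG lay within the 4 bases before the dominant TSS in 602 of 1012 clusters with sequence (59.5%, 56.4% to 62.5%), against 2.57% of the 1665278 positions that the rule allows in the same 3' UTRs. The share was 60.1% in A1 (57.0% to 63.0%) and 60.5% in C7 (57.5% to 63.4%). Coding sequence clusters of E14 had it in 42.3% (40.5% to 44.1%) and clusters at annotated starts in 10.7% (10.2% to 11.1%). Guanine stood at the second base before the TSS in 86.7% of 3' UTR clusters and at the base before it in 70.6%. In coding sequence clusters these shares were 83.4% and 77.0%, so guanine at these bases was not particular to 3' UTRs. Neither GGG nor the TTTT described below was among the features planned beforehand, so their shares are a description. GGG was searched on the transcript strand only. Sequence was found for 1012 of 1013 3' UTR, 2783 of 2784 coding sequence and 17084 of 19872 annotated start clusters.

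From the start onwards the 3' UTR clusters were rich in thymine. The first base was T in 42.3% of E14 clusters (39.3% to 45.4%) and in 31.2% of allowed positions, and G in 24.6% (22.1% to 27.4%) against 21.5%. TTTT lay within the first 6 bases of 25.5% of 3' UTR clusters (22.9% to 28.3%), of 4.09% of allowed positions, of 2.01% of coding sequence clusters (1.55% to 2.60%) and of 2.25% of annotated starts (2.04% to 2.48%). GGG before and TTTT after stood together in 131 E14 clusters (12.9%), against 0.0836% of allowed positions and 0.970% of coding sequence clusters (0.668% to 1.41%). The runs printed for Myo10 and Gatad2a have this form, with guanines in capitals and thymines after them. The thymine run thus set the 3' UTR clusters apart from those in coding sequence as well as from annotated starts, with intervals that did not overlap. Base content differs too, since at 15 bases before the start thymine stood in 31.2% of 3' UTR and 19.7% of coding sequence clusters. Allowed positions were counted for 3' UTRs only, and no bases were read for intron or intergenic clusters.

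The step usual at annotated starts, a pyrimidine before and a purine at the first base, was rare in 3' UTRs. It was found in 48 of 1012 E14 clusters (4.74%, 3.60% to 6.23%), against 21.9% of allowed positions, 8.59% of coding sequence clusters (7.60% to 9.69%) and 74.4% of annotated start clusters (73.8% to 75.1%). The most frequent step was G to T, in 259 clusters (25.6%). TATAAA beginning 35 to 25 bases before the start was found for 4 E14 clusters (0.395%), against 0.626% of allowed positions. AATAAA, the main poly(A) signal, lay within 50 bases before 28 starts (2.76%, 1.92% to 3.97%), against 3.31% of allowed positions.

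**Figure D3:**
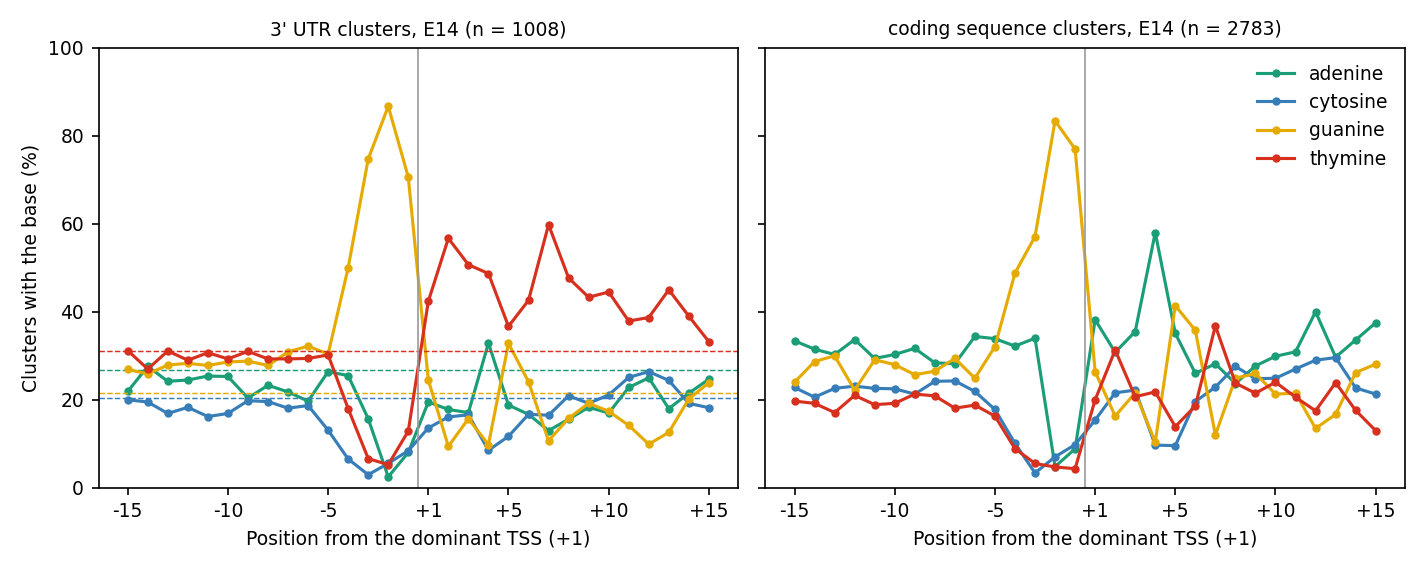
Share of E14 clusters (%) with each base from 15 positions before to 15 positions after the dominant TSS (+1), for 1008 3' UTR clusters with all 30 bases in 1 transcript (left) and 2783 coding sequence clusters (right). Dashed lines on the left are the shares over all allowed positions of the same 3' UTRs. Guanine reaches 86.7% at the second base before the start in 3' UTRs and 83.4% in coding sequence. Thymine in 3' UTRs is above its dashed line of 31.2% from +1 on.

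The guanine run was more frequent in narrow clusters, and along the 3' UTR its intervals overlapped. It was found in 70.0% of E14 clusters with an interquantile width of at most 2 bp (66.1% to 73.6%) and in 40.7% of those over 20 bp (30.7% to 51.6%). The pyrimidine-purine step went the other way, with 3.18% (2.02% to 4.97%) and 12.3% (6.85% to 21.3%). In 5 equal parts of the 3' UTR, from the stop codon on, GGG was found before 62.6%, 55.7%, 61.2%, 59.3% and 55.1% of E14 starts.

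The clusters themselves were narrow. The interquantile width, which spans quantiles 0.1 to 0.9 of the cluster's signal, had a median of 2 bp in each line (quartiles 2 and 8 bp in E14). Clusters no wider than 2 bp made up 56.0% of the 3' UTR clusters of E14 (52.9% to 59.0%), 53.4% of A1 (50.4% to 56.5%) and 54.6% of C7 (51.6% to 57.6%). In E14 they made up 40.6% of coding sequence clusters (38.8% to 42.4%), 46.1% of intron clusters (44.3% to 47.9%) and 9.18% of annotated start clusters (8.79% to 9.59%), whose median was 20 bp. On chromosomes 1 to 19 and X, the 3' UTR median was below that of coding sequence on 19 of 20 and equal to it on 1. The chromosomes share the same libraries, so they do not repeat the result. The smallest possible width is 1 bp, so the 3' UTR medians stood near the floor. The part of depth in these widths was not tested.

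A few 3' UTR clusters were broad, and 81 in E14 exceeded 20 bp. The widest was in Canx, the endoplasmic reticulum chaperone calnexin, on the minus strand of chromosome 11 from 50295963 to 50296230, with an interquantile width of 193 bp and its dominant TSS 73 bases after the stop codon. It was followed by Lars2, the mitochondrial leucyl-tRNA synthetase, with 138 bp, Nucks1 with 82 bp, Khsrp, a protein that binds AU-rich elements, with 72 bp, and Tdgf1 with 67 bp. Whether these stretches have near-identical copies elsewhere in the genome was not tested.

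**Figure D4:**
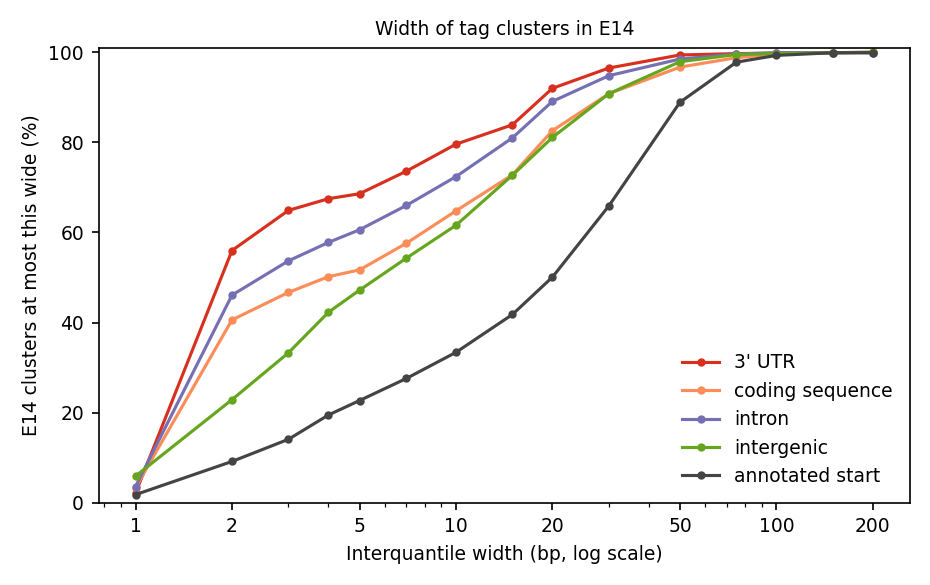
Cumulative share of E14 tag clusters (%) against interquantile width in bp (log scale) for 5 categories of position. The 3' UTR line stands highest at 2 bp, with 56.0% of clusters at most this wide against 9.18% at annotated starts.

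Between the lines, the 3' UTR starts were nearly the same set. When the clusters of the 3 lines were joined wherever they overlapped by at least 1 bp, 1037 joined clusters lay in 3' UTRs, of which 1004 were found in all lines (96.8%, 95.6% to 97.7%), and 997 of these had the same start and end in each line. The authors' clustering included an aggregation step, so shared bounds are not independent calls. Clusters of both DKO clones that E14 lacked numbered 10 (0.964%, 0.525% to 1.77%), where 0.444% of all 33324 joined clusters were of this kind. E14 alone had 0 (upper limit 0.369%), where 0.228% of all joined clusters were of this kind. In coding sequence the numbers were 28 (0.976%, 0.676% to 1.41%) and 4, and at annotated starts 40 of 20005 (interval 0.147% to 0.272%) and 35. The 3' UTR share and the coding sequence share of clusters of both clones thus had overlapping intervals, and both intervals lay above that of annotated starts. Intergenic clusters had a like share (55 of 5848, 0.940%, 0.723% to 1.22%), and introns had 13 of 3095 (0.420%, 0.246% to 0.717%), an interval that overlapped that of 3' UTRs.

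The 10 clusters of both clones came from 10 genes. Enah, an actin regulator, had its TSS at 181903697 on chromosome 1, at 2163 of 9476 bases of the 3' UTR, and E14 had 8 other clusters in the 3' UTRs of this gene. Pkp4, a plakophilin-family armadillo protein, had its TSS at 59354568 on chromosome 2, at 120 of 757 bases. Pakap, a gene of kinase anchoring proteins, had it at 57893003 on chromosome 4, 36 bases after the stop codon. Ppp1cb, a catalytic subunit of protein phosphatase 1, had it at 32492217 on chromosome 5, at 1159 of 4465 bases. These 4 genes differed in position along the 3' UTR, from 2.06% for Pakap to 26.0% for Ppp1cb.

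Cd9, a tetraspanin, had its TSS at 125460490 on chromosome 6, at 171 of 395 bases. Gatad2a, a subunit of the NuRD complex, had it at 69909418 on chromosome 8, at 426 of 1374 bases. Kank2, an adaptor of the actin cytoskeleton, had it at 21767367 on chromosome 9, at 1584 of 2167 bases. For Pa2g4, a proliferation-associated protein, the TSS was at 128558480 on chromosome 10 (426 of 1140 bases), for Irf2bpl at 86880962 on chromosome 12 (608 of 869 bases) and for Myo10, an unconventional myosin, at 25812783 on chromosome 15 (561 of 1451 bases). Each of the 10 had the same dominant TSS in A1 and C7. For the 9 that were 1 bp wide this follows from the joining of overlapping clusters. At Pkp4, Kank2, Pa2g4 and Irf2bpl, E14 had no other 3' UTR cluster. GGG lay within the 4 bases before 6 of the 10.

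Of the 10, all but the Irf2bpl cluster were 1 bp wide. When only clusters with an interquantile width of 3 bp or more were kept in each line, 26 3' UTR clusters were of both clones and not E14, since a cluster narrower than this in E14 then counted as missing there. No share over all clusters is given at this limit, so the 26 cannot be called particular to 3' UTRs. Clusters of 1 bp made up 3 of the 1004 3' UTR clusters found in all lines, and 23 of the 24 that E14 lacked. None of the 9 that E14 shared with only 1 of the clones was 1 bp wide. Over all categories, 86 of the 148 clusters of both clones that E14 lacked had this width, and so did 70 of the 76 of E14 alone. Clone A1 alone had 4 members, where 0.651% of all joined clusters were in A1 alone, and clone C7 alone had 10, where 0.321% were in C7 alone. The 4 of A1, named here after their values were seen, were at Dlg1, Fnip1, Hmga1 and Mapk1ip1l. Taken 1 clone at a time, of 1037 joined 3' UTR clusters A1 had 14 that E14 lacked and lacked 7 of E14. C7 had 20 and lacked 2, at Ccng1 and Tubb5. Of 2869 in coding sequence, A1 had 56 and lacked 21, and C7 had 58 and lacked 20. Of 20005 at annotated starts, A1 had 93 and lacked 103, and C7 had 83 and lacked 85. The libraries behind the lines differ in number, and the part of depth in these counts was not tested.

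Among the 1004 shared 3' UTR clusters, 627 (62.5%) had the same dominant TSS in all lines, where 66.3% of all shared clusters had. In 3' UTRs the interval was 59.4% to 65.4%. The dominant TSS differed from E14 in both clones in 112 (11.2%, 9.35% to 13.3%), where 11.1% of all 32415 clusters shared 1 to 1 were of this kind, so over all widths the 3' UTR share was close to that of all clusters. Among clusters with an interquantile width of at most 2 bp in E14, it differed in 64 of 562 in 3' UTRs (11.4%, 9.02% to 14.3%), against 6.50% in coding sequence (5.19% to 8.11%) and 6.80% at annotated starts (5.72% to 8.08%). In the wider classes the 3' UTR intervals overlapped those of both. In 109 it had moved in the same direction in both clones, where the share over all shared clusters was 10.3%. The move was downstream in 63 (6.27%) and upstream in 46 (4.58%), against 5.43% and 4.84% of all shared clusters. The smaller of the 2 moves was 1 bp in 77 of the 109. Both clones were read against the same E14 base. In a cluster 2 bp wide, a base other than that of E14 is the same base in both clones. The shared direction was thus fixed in such clusters. A move of at least 5 bp in both clones was found in 24 (2.39%, 1.61% to 3.53%), against 5.73% of all (5.48% to 5.98%). Narrow clusters cannot hold such a move, and 3' UTR clusters were narrower than most.

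The farthest moves shared by both clones were read from E14, with negative values upstream. At Aplp2, an amyloid precursor-like protein, the dominant TSS stood at 31149850 on chromosome 9 in E14 and at 31149880 in both clones, a shift of -30 bp in each. At Slc2a3 the shift was -22 bp in each, from 122729460 to 122729482. At Pakap it was 21 bp in A1 and 23 bp in C7, in a cluster from 57893724 to 57893747 on chromosome 4 that is not the one E14 lacked. At Rpl41, a ribosomal protein, it was 20 bp in each, and at Sox4, a transcription factor of the SOX family, 20 bp in A1 and 21 bp in C7. The bounds of these clusters held both positions, so the move was between bases of 1 cluster.

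Over all widths, interquantile regions that changed were more often wider in the clones. They were wider than E14 in both clones in 65 of 1004 (6.47%, 5.11% to 8.17%), where 12.5% of all shared clusters were, and narrower in both in 11 (1.10%, 0.613% to 1.95%), where 3.99% were. Clusters of at most 2 bp in E14 have little room to narrow, and of these 562, 33 were wider and 2 narrower. Of 81 over 20 bp, 6 were wider and 6 narrower. The width was the same in all lines in 786 (78.3%), where 59.5% of all shared clusters, 76.2% in coding sequence and 78.7% in introns had the same width. At annotated starts 16.0% were wider (15.5% to 16.5%) and 5.07% narrower (4.77% to 5.38%), so wider clusters outnumbered narrower ones there too. In coding sequence 5.87% were wider (5.05% to 6.81%), an interval that overlapped that of 3' UTRs. Annotated start clusters were also broader, and at matched widths the intervals overlapped in some classes and not in others. At 3 to 10 bp, 8.02% of 3' UTR clusters were wider (5.19% to 12.2%) against 7.28% at annotated starts (6.57% to 8.05%), and over 20 bp, 7.41% (3.44% to 15.2%) against 21.9% (21.1% to 22.8%). Narrower clusters over 20 bp were 7.41% in 3' UTRs (3.44% to 15.2%) and 7.87% at annotated starts (7.35% to 8.42%).

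**Figure D5:**
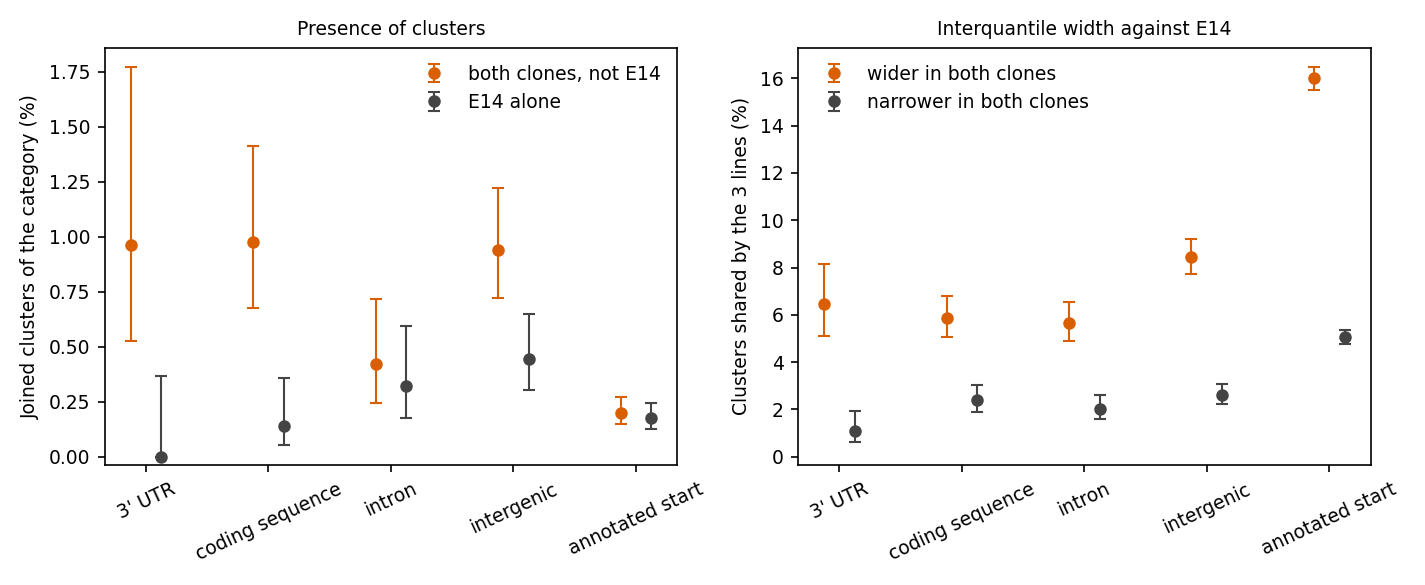
Left, joined clusters (%) found in both DKO clones and not E14, or in E14 alone, by category. Right, clusters shared by the 3 lines (%) whose interquantile region was wider or narrower than in E14 in both clones. Bars are 95% Wilson intervals, and in 3' UTRs 10 clusters were of both clones and 0 of E14 alone.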

How the data were processed

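CAGE-seq was done on nuclear RNA of 8 libraries. Per the submitters' processing notes, the authors used STAR 2.4.2a, SAMtools 1.3, bedtools 2.17.0 and the mm10 assembly. The study's methods give a later bedtools release for the annotation of TSSs. Per the methods, tag clusters were called with CAGEr. The study states that biological replicates were merged, and its methods do not say at which step. A correction for the extra guanine that reverse transcription can add at the cap is not given in the sources used here. The deposited values used are positions, and the deposited score was 0 in every row, so no signal was analysed.

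Each cluster was placed by its dominant TSS against GENCODE release M21. The reference transcript for a position was the protein-coding one with the longest coding sequence, then the longest 3' UTR. Bases were read from the GENCODE transcripts and, at annotated starts, also from RefSeq promoters of GRCm38. Python 3.11.15, NumPy 2.4.6, SciPy 1.17.1 and Matplotlib 3.10.9 were used. Shares have 95% Wilson intervals, densities exact Poisson intervals and medians order-statistic intervals. Since clusters of 1 line share their libraries, no p-value is given. Tested on simulated data, 400 of 400 categories and 1000 of 1000 positions were recovered.

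Genes named were the 5 with most, the 5 widest and the 5 farthest E14 clusters, those differing between lines, the 5 farthest moves, up to 4 per gene list, the 3 members and 3 excluded clusters nearest the 500 bp limit, and Hnrnpk, Nap1l1 and Ptges3. The members and lists were chosen with earlier results of these data known.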

Additional observations from a re-analysis of the deposited data

How the results depend on the processing

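No paired analysis was possible because the deposited positions merge the libraries of each line and no library could be left out. The order of values is E14, A1, C7. Of 129 recalculated values, 103 stayed within the 95% interval or within 1.5 times of the reported count, 26 moved and 0 reversed. Limited to clusters with 3 bp or more between the quantiles, members numbered 446, 475 and 468. Their share of clusters was 1.68, 1.78 and 1.76%, and their median width 9 bp in each line. The share with GGG before the start was 46.2, 48.6 and 48.7%, and both GGG and its alternatives were chosen after seeing the data. At this limit 26 clusters were of both clones and not E14. A minimum width leaves out narrow clusters by construction, and no share over all clusters is given beside the 26. Outside every same-strand intron and noncoding exon, the share of clusters was 2.10, 2.11 and 2.15% and the median relative position 0.370, 0.373 and 0.373. The shortest 3' UTR that holds the start gave a median relative position of 0.419, 0.414 and 0.415, by its shorter denominator. Against clone A1 alone E14 had 7 clusters of its own, and against clone C7 alone 2, while C7 had 20 that E14 lacked, since these counts do not ask for the other clone. These are of 1037 joined 3' UTR clusters, and of 2869 in coding sequence the same counts were 21, 20 and 58. With a move of at least 5 bp, 2.39% of shared clusters had another dominant TSS in both clones. The depth behind each cluster is unknown, so a cluster missing from a line may lie below its detection limit.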
